A study of Mus musculus with 16 samples.

Results

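The immediate early genes Fos, Fosb, Jun, Junb, Egr1, Egr2, Arc, Npas4, Nr4a1 and Ier2 were followed in cultured mouse neural stem cells (NSC) in which the lncRNA RUS was targeted by RNA interference. They were taken by symbol from 55471 gene lines in each of 2 expression tables, each of the 10 genes stood on 1 line per table, and all 10 passed the filter on low values. The cells came from embryonic cortices of C57BL/6 mice at E15 to E16 and had received lentivirus encoding either a RUS shRNA (shRNA-RUS) or a scrambled shRNA (shRNA-CON), and polyA RNA was sequenced on day 5 and day 7 after seeding, with 4 libraries per shRNA and day and 16 in all. All groups share lentiviral transduction, and the control carries the scrambled shRNA. Cortices of mixed-sex embryos had been pooled, virus was added 1 day after seeding, and 1 shRNA against RUS was used. On day 5 the medium was changed to start differentiation and bFGF was withdrawn, so the day and the change of medium cannot be told apart. The design text speaks of 4 experiments for each condition, but nothing in the labels says whether they were separate cultures or animals, and p-values then measure the spread between these libraries, which may be technical.

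Immediate early genes are transcribed within minutes of a growth factor, calcium or stress signal, without new protein synthesis, from promoters on which SRF with its ternary complex factors and CREB are already bound. Most encode transcription factors: Fos and Jun proteins pair through leucine zippers to form AP-1, Egr proteins bind GC-rich sites with zinc fingers, and NR4A receptors bind DNA without a known ligand. In neurons the same genes report synaptic activity, and Npas4 is known for its selective response to calcium entry, whereas Fos, Jun and Egr genes also respond to mitogens such as bFGF in dividing precursors.

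The levels are TPM, a share of all transcripts in a library that corrects for transcript length. The tables give no read totals per library, but they give each gene's mean normalized count over the 8 libraries of a day, as computed by the authors. Those means were 3145 on day 5 and 1378 on day 7 for Fos and 4233 and 3404 for Jun, against 59.2 and 85.6 for Egr2, 109 and 74.1 for Fosb, 95.6 and 172 for Npas4 and 115 and 100.03 for Arc. TPM above 0 were listed for 25615 to 29126 genes per library. RUS itself (Gm20754) stood at 0.24, 0.11, 0.18 and 0.16 TPM in shRNA-CON and 0.05, 0, 0.12 and 0.32 TPM in shRNA-RUS on day 5, and at 0.7, 0.72, 0.26 and 0.54 against 0.54, 0.38, 0 and 0.04 TPM on day 7. At this low level the difference did not pass an exact two-sided permutation test (p = 0.543 on day 5 and 0.143 on day 7, where 0.0286 is the smallest possible). The authors' mean normalized counts of RUS were 3.86 on day 5 and 8.57 on day 7, so this check of the labels rests on few counts. By it the library labelled shRNA-RUS, replicate 4, on day 5 lay above all 4 controls of its day. In its summed proliferation markers the same library stood at 256 TPM, near the other 3 knockdown libraries (229 to 254 TPM) and apart from the controls (435 to 461 TPM), and its microglia sum of 61.8 TPM and endothelial sum of 3.43 TPM also lay below all controls. Its library factor of 1.01 lay between those of the other knockdown libraries (0.920 to 0.939) and the controls (1.02 to 1.11), nearer to the controls, and its most abundant gene was mt-Co1, as in the 4 controls, against Gm29216 in the other 3 knockdown libraries. Day 5 knockdown effects are given with it and, in 1 place, without it.

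The promoters of 7 members were in the RefSeq table used (GRCm38.p6, 250 bases before to 50 bases after each start): Fos, Fosb, Jun, Junb, Egr2, Npas4 and Nr4a1. Arc, Egr1 and Ier2 were not matched. TGACG, the core of the cAMP response element to which CREB binds, was searched on both strands and was found in 6 of these 7 genes, all but Jun, against 23.0% of the 27018 genes with a promoter in the table. The palindrome TGACGTCA, which holds this core on both strands, was in none of them and in 2.03% of all genes. TATAAA was in the windows of Fos, 33 to 28 bases before the start, and of Junb, 0 to 5 bases after it, and in 15.7% of all genes. The Egr site GCGGGGGCG was in the windows of Fosb and Nr4a1 and in 3.31% of all genes. The CArG box, to which SRF binds, was in the window of Egr2 and in 1.81% of all genes. The AP-1 site TGANTCA was in none of the 7 and in 8.98% of all genes. These matches describe letters in a window and are neither sites shown to be bound nor causes. Bases farther than 250 before a start were not searched, so a gene without a match may hold the element elsewhere. The sequences below show 1 core per gene, or the CArG box for Egr2, in capitals (CGTCA is TGACG on the other strand). On day 7 Npas4 was lower in the knockdown and the other genes shown were higher. A link between the core and direction was not tested.
Fos: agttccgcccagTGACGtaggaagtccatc
Fosb: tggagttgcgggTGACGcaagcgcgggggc
Junb: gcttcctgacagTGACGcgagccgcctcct
Egr2: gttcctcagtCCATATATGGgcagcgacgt
Npas4: gacgtcacgggaTGACGtcggaagtctggg
Nr4a1: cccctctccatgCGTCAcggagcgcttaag
The capitals lie at chr12:85473824-85473828 for Fos (plus strand), chr7:19310101-19310105 for Fosb (minus strand), chr8:84978850-84978854 for Junb (minus strand), chr10:67537797-67537806 for Egr2 (plus strand), chr19:4990136-4990140 for Npas4 (minus strand) and chr15:101266806-101266810 for Nr4a1 (plus strand). They begin 66, 60, 106, 169 and 40 bases before the RefSeq start of Fos, Fosb, Junb, Npas4 and Nr4a1. These starts need not be the outer ends of the genes. For Egr2, Npas4 and Nr4a1 the capitals lie inside the gene bounds given in the next paragraph. Egr2 has more than 1 start, and its window at chr10:67535249-67535548 held none of the motifs. The Npas4 window holds a further copy of the core on the other strand within the bases shown.

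Gene structure and 3′ UTRs were read from the annotation. In the GENCODE vM21 annotation (GRCm38), Jun (chr4:95049034-95052222), Junb (chr8:84974484-84978718) and Ier2 (chr8:84661331-84662852) have main transcripts of 1 exon, Fos (chr12:85473890-85477273) and Fosb (chr7:19302696-19310051) of 4, Egr2 (chr10:67535475-67542188) of 2 and Arc (chr15:74669083-74672570) of 3, while Npas4 (chr19:4984355-4990316) and Nr4a1 (chr15:101254269-101274795) have 8 exons each. Junb overlaps Prdx2 and Jun overlaps Junos, both on the opposite strand. Whether reads were counted by strand is not given in the sources used here, so reads of these overlaps may be shared. The pentamer ATTTA, the core of AU-rich elements that mark short-lived mRNAs, occurred 4 times in the 3′ UTR of Fos and 4 times in that of Jun, 3 times in Egr2 and Nr4a1, and in neither Arc nor Ier2. Its median density was 2.07 per kb over the 10 genes and 1.35 per kb over 19921 genes with a 3′ UTR of at least 100 bases.

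Levels differed widely among the 10 genes, and the order of the genes changed with the group of libraries. Fos, Jun, Egr1 and Junb were the most abundant members in shRNA-CON on day 5, with mean TPM of 54.2 ± 4.25, 43.8 ± 6.31, 28.6 ± 2.96 and 24.8 ± 8.07 (SD, n = 4). Ier2 stood at 12.5 ± 2.43 TPM and Nr4a1 at 3.69 ± 0.554 TPM. Arc, Npas4, Fosb and Egr2 lay between 0.85 and 1.58 TPM on average. Among genes averaging 0.1 TPM or more in that group, 86.2% lay below Fos and 30.2% to 37.0% lay below these 4 low members. Fos was the most abundant member in both day 5 groups and Jun in both day 7 groups. The lowest member was Egr2 in shRNA-CON and Npas4 in shRNA-RUS on day 5, and Fosb under both shRNAs on day 7.

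**Figure D1:**
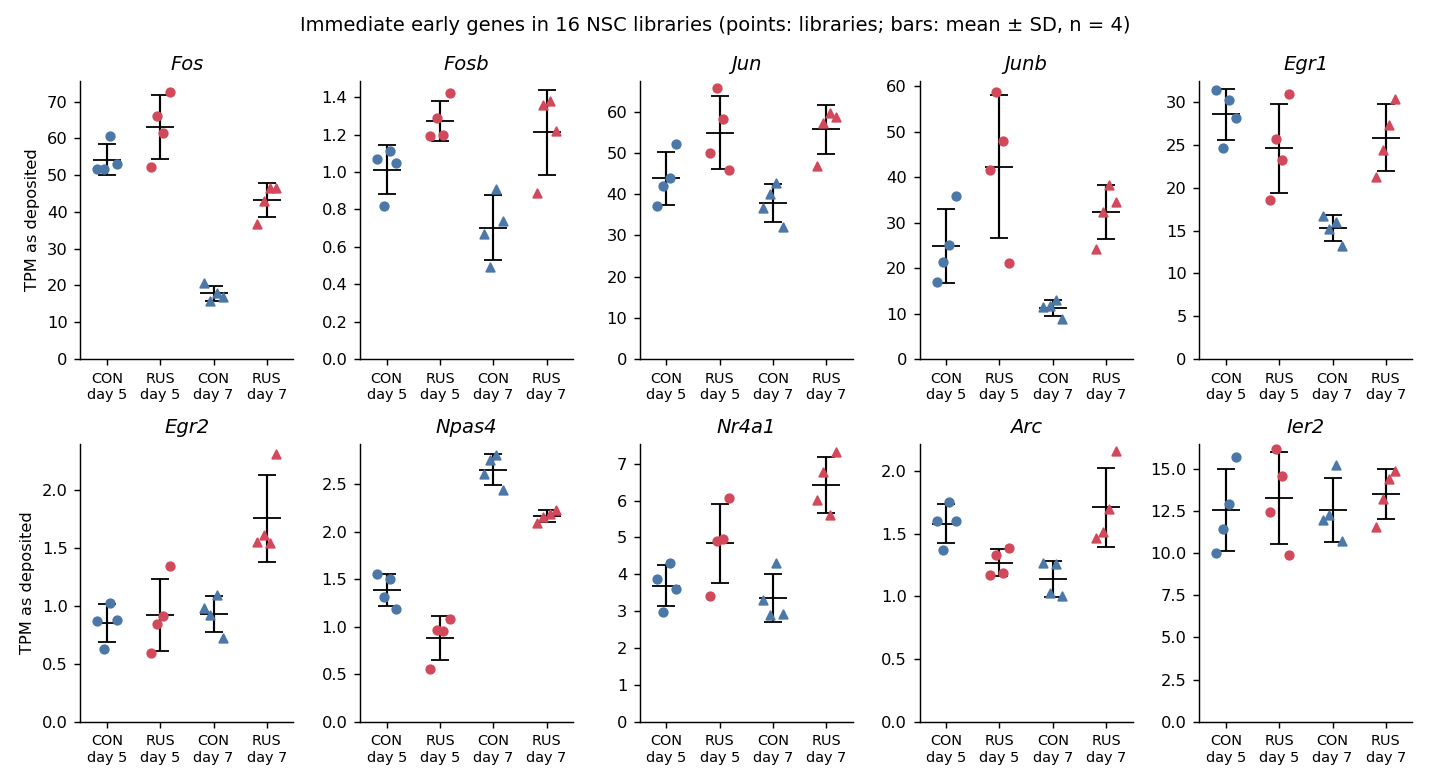
TPM as deposited (vertical axis, from 0) of each member in the 16 libraries, by shRNA and day, with the mean and SD of 4 libraries as bars. On day 7 all 4 shRNA-RUS libraries lie above all 4 shRNA-CON libraries for Fos, Jun, Junb, Egr1, Egr2, Arc and Nr4a1, and below them for Npas4.

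On day 7 the knockdown cultures held more of most immediate early transcripts than the controls. Of the 10 genes, 8 were higher and 1 was lower at an adjusted p under 0.05, where 23.4% of all 24606 genes tested were higher and 25.8% were lower. The median log2 fold change of the members was 0.73, beside −0.03 over all genes tested. In 7 members every shRNA-RUS library exceeded every shRNA-CON library, which held for 22.3% of all genes, and in 1 member every one lay below, which held for 24.7%. Fold changes come from limma on log2(scaled TPM + 0.1), where scaled TPM is the TPM divided by a library factor, and they understate the change of low genes.

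Fos, the inducible partner in AP-1, stood at 20.68, 15.89, 18.04 and 16.76 TPM in shRNA-CON and at 36.75, 42.98, 46.41 and 46.54 TPM in shRNA-RUS on day 7. Every knockdown library lay above every control, and the log2 fold change was 1.27 (SE 0.10, adjusted p = 5.94e-06). Junb, a Jun family member that can restrain proliferation, stood at 11.4, 11.72, 12.9 and 8.88 TPM in shRNA-CON and at 24.23, 32.35, 38.26 and 34.46 TPM in shRNA-RUS. It showed the largest increase among the 10 genes, again without overlap between the groups (log2 fold change 1.51, SE 0.15, adjusted p = 2.5e-05). Jun, the founding member of its family, stood at 36.7, 40.14, 42.77 and 31.93 TPM against 46.86, 57.26, 59.76 and 58.8 TPM. The groups of Jun were apart by a small margin (log2 fold change 0.55, SE 0.10, adjusted p = 0.0012). Fosb, whose splice form ΔFosB accumulates on repeated stimulation, was higher at low level, with 0.67, 0.49, 0.91 and 0.74 TPM in shRNA-CON and 0.89, 1.36, 1.38 and 1.22 TPM in shRNA-RUS. Its groups overlapped, since shRNA-RUS replicate 1 lay below shRNA-CON replicate 3 (log2 fold change 0.72, SE 0.21, adjusted p = 0.0182). Without shRNA-RUS replicate 2 or replicate 3 the adjusted p of Fosb was 0.0516 or 0.0511.

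Both Egr genes were higher on day 7. Egr1, a zinc finger factor induced through ERK and SRF, stood at 16.69, 15.19, 15.97 and 13.16 TPM in shRNA-CON and at 21.29, 24.34, 27.3 and 30.38 TPM in shRNA-RUS. The groups were apart, with a log2 fold change of 0.75 (SE 0.11, adjusted p = 3.64e-04). Egr2, a relative that also controls Schwann cell myelination, was lower in level, with 0.98, 0.92, 1.09 and 0.72 TPM against 1.55, 1.61, 1.54 and 2.31 TPM. Its groups did not overlap either, and shRNA-RUS replicate 4 stood above the other 3 (log2 fold change 0.84, SE 0.18, adjusted p = 0.00306). Nr4a1, an orphan nuclear receptor, stood at 3.29, 2.89, 4.31 and 2.93 TPM in shRNA-CON and at 6.01, 6.77, 5.6 and 7.31 TPM in shRNA-RUS, again apart (log2 fold change 0.93, SE 0.14, adjusted p = 3.85e-04). Arc, which encodes a dendritic protein that removes AMPA receptors from synapses, stood at 1.27, 1.03, 1.26 and 1 TPM against 1.47, 1.51, 1.7 and 2.16 TPM. The Arc groups did not overlap, and their nearest libraries stood at 1.27 and 1.47 TPM (log2 fold change 0.54, SE 0.16, adjusted p = 0.0177).

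Npas4 was lower, and Ier2 did not pass the test. Npas4, a bHLH-PAS factor of excited neurons, stood at 2.6, 2.75, 2.8 and 2.44 TPM in shRNA-CON and at 2.09, 2.15, 2.18 and 2.23 TPM in shRNA-RUS on day 7. All knockdown libraries lay below all controls, and the log2 fold change was −0.28 (SE 0.09, adjusted p = 0.0248). This call was lost in the fit over all 16 libraries (adjusted p = 0.113), with quantile normalization (adjusted p = 0.092), and without shRNA-CON replicate 2 or 3 or shRNA-RUS replicate 1 or 2 (adjusted p from 0.0539 to 0.0669). Ier2, which encodes a small nuclear protein, stood at 11.98, 12.25, 15.25 and 10.73 TPM against 11.52, 13.23, 14.42 and 14.88 TPM. Its groups overlapped and the difference was 0.11 on the log2 scale, with a 95% interval from −0.14 to 0.36 (adjusted p = 0.46). Ier2 lies 311.6 kb from Junb on chromosome 8.

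**Figure D2:**
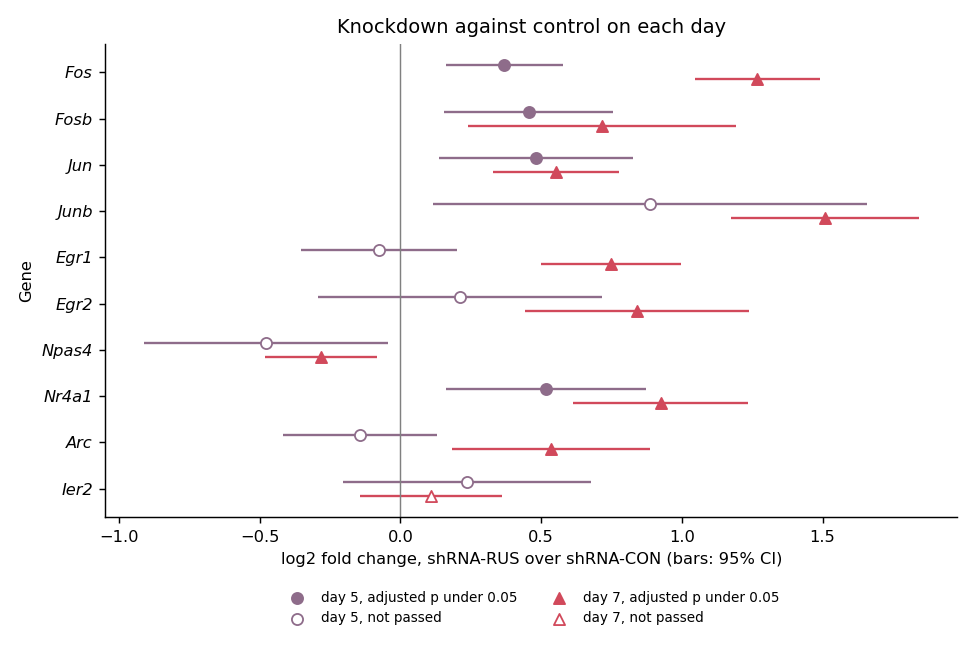
Log2 fold change of shRNA-RUS over shRNA-CON (horizontal axis) for each member on day 5 (circles) and day 7 (triangles), with 95% confidence intervals as bars and filled symbols at an adjusted p under 0.05. On day 7 Junb at 1.51 and Fos at 1.27 lie farthest to the right, and Npas4 lies left of 0 on both days.

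On day 5 the same comparison called fewer members. Of the 10 genes, 4 were higher (Fos, Fosb, Jun and Nr4a1) and 0 were lower by limma, where 14.8% of 22581 genes were higher and 17.9% were lower. Tested without the filter on low values, Fos alone was called, and the adjusted p was 0.0737 for Fosb, 0.0647 for Jun and 0.0555 for Nr4a1. At an unadjusted p under 0.05, 5 were higher and 1 was lower, and the shares of all genes above do not apply to that threshold. The median log2 fold change was 0.30 over the members and −0.06 over all genes. With TPM as deposited, without library factors, the median of all genes moved to −0.21 and 0 members were higher and 1, Npas4, was lower, whereas 75th percentile scaling kept the count at 4 higher. Of all genes called on day 5, 45.4% were higher with library factors, 22.7% with TPM as deposited and 58.1% with 75th percentile scaling. The factors were 1.02 to 1.11 in shRNA-CON and 0.92 to 1.01 in shRNA-RUS.

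Fos stood at 51.61, 51.67, 60.5 and 53.07 TPM in shRNA-CON on day 5 and at 52.11, 66.16, 61.42 and 72.73 TPM in shRNA-RUS. The ranges overlapped, with a log2 fold change of 0.37 (SE 0.09, adjusted p = 0.0135). Fosb stood at 1.07, 0.82, 1.11 and 1.05 TPM against 1.19, 1.29, 1.2 and 1.42 TPM. It was the 1 member whose knockdown libraries all lay above the controls on day 5, which held for 14.1% of all genes (log2 fold change 0.46, SE 0.13, adjusted p = 0.0275). Jun was higher by 0.48 (SE 0.15, adjusted p = 0.0379) and Nr4a1 by 0.52 (SE 0.16, adjusted p = 0.0322) on the log2 scale, both with overlap. Without single libraries the adjusted p rose above 0.05 for Jun in 6 of 8 cases (0.0617 to 0.0941), for Nr4a1 in 6 of 8 (0.0625 to 0.0844) and for Fosb in 3 of 8 (0.0558 to 0.071), so that leaving out shRNA-CON replicate 1 or 2 or shRNA-RUS replicate 2 left 1 member higher, and leaving out shRNA-RUS replicate 3 left 2.

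Junb on day 5 varied most among libraries, with 17, 21.34, 25.1 and 35.86 TPM in shRNA-CON and 41.47, 58.65, 47.87 and 21.22 TPM in shRNA-RUS. Replicates 1 to 3 of shRNA-RUS lay above all controls, and the library labelled replicate 4 lay among them. That library was above the controls in RUS and with the other knockdown libraries in proliferation markers, as given above. The log2 fold change of 0.89 (SE 0.34) missed the threshold (adjusted p = 0.0769), and without that library it was 1.22 (adjusted p = 0.00494). Without shRNA-CON replicate 4, the highest control, it was 1.09 (adjusted p = 0.0449). The fit over 16 libraries called Junb higher with every library kept (0.88, adjusted p = 0.0231). Jun and Ier2 were also lowest in that shRNA-RUS library, at 45.79 and 9.91 TPM, while, within shRNA-RUS on day 5, Fos, Fosb, Egr1, Egr2, Npas4, Nr4a1 and Arc were highest in it, at 72.73, 1.42, 30.97, 1.34, 1.08, 6.06 and 1.39 TPM. Without this library 4 members were higher on day 5, as with it, with Junb in place of Nr4a1, and the median over the members was 0.36. The log2 fold changes were then 0.33 for Fos (adjusted p = 0.025), 0.44 for Fosb (0.0471), 0.60 for Jun (0.00963) and 0.43 for Nr4a1 (0.0625). For Ier2, Egr2, Arc, Egr1 and Npas4, which did not pass, they were 0.40, 0.06, −0.16, −0.16 and −0.55.

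The remaining members did not pass the test on day 5. Egr1 stood at 31.34, 24.61, 30.22 and 28.09 TPM in shRNA-CON and 18.52, 25.66, 23.18 and 30.97 TPM in shRNA-RUS, with a log2 difference of −0.08 (95% interval −0.35 to 0.20). Arc differed by −0.15 (−0.42 to 0.13), Egr2 by 0.21 (−0.29 to 0.71) and Ier2 by 0.24 (−0.21 to 0.68) on the log2 scale. Npas4 stood at 1.55, 1.31, 1.5 and 1.18 TPM against 0.55, 0.96, 0.95 and 1.08 TPM. Its knockdown libraries were all below the controls, which held for 18.7% of all genes, with a log2 difference of −0.48 (−0.91 to −0.04) and an adjusted p of 0.0888, and the fit over 16 libraries called it lower (adjusted p = 0.0159).

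In the control cultures most members fell between day 5 and day 7. Of the 10 genes, 6 were lower (Fos, Fosb, Jun, Junb, Egr1 and Arc) and 1, Npas4, was higher on day 7, where 21.6% of 23789 genes were lower and 26.9% were higher. The median log2 change was −0.47 over the members and 0.07 over all genes, a shift that was 0.20 with TPM as deposited. Of all genes called, 55.5% were higher on day 7, and 71.4% with TPM as deposited and 46.3% with 75th percentile scaling. Under these scalings 5 and 6 members were lower.

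Fos fell by 1.75 on the log2 scale in shRNA-CON (SE 0.10, adjusted p = 1e-09), from 54.2 to a mean of 17.8 ± 2.09 TPM. Junb fell by 1.25 (SE 0.29, adjusted p = 0.00188), from 24.8 to 11.2 ± 1.69 TPM, and Egr1 fell by 1.05 (SE 0.12, adjusted p = 3.5e-06), from 28.6 to 15.3 ± 1.52 TPM. For these 3 genes, as for Fosb and Arc, all day 7 controls lay below all day 5 controls on the common scale of the 16 libraries, which held for 20.8% of all genes. Fosb fell by 0.62 (adjusted p = 0.00608), Arc fell by 0.58 (adjusted p = 0.00159) and Jun, with overlap, fell by 0.36 (adjusted p = 0.0409) on the log2 scale. Jun was the least stable of these calls and kept it in 15 of 26 alternative settings. Npas4 rose by 0.75 (SE 0.15, adjusted p = 4.87e-04), from 1.39 to 2.65 ± 0.162 TPM, with no overlap. Levels in this paragraph are TPM as deposited, while log2 changes are on scaled TPM. Scaled means on day 5 and day 7 were 1.42 and 2.45 for Npas4 and 55.8 and 16.5 for Fos. Nr4a1 (−0.29, 95% interval −0.62 to 0.04), Ier2 (−0.14, −0.50 to 0.22) and Egr2 (−0.02, −0.45 to 0.41) did not pass the test.

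In the knockdown cultures fewer members passed the test between the days. Fos was lower (log2 change −0.87, SE 0.10, adjusted p = 1.45e-06), and Egr2 (0.59, SE 0.20, adjusted p = 0.0185) and Npas4 (0.94, SE 0.15, adjusted p = 3.85e-05) were higher on day 7, where 25.8% of all genes were lower and 35.0% were higher. The median over the members was −0.26, beside 0.13 over all genes. Of all genes called, 57.5% were higher on day 7, and 76.9% with TPM as deposited and 46.0% with 75th percentile scaling, so these counts depend on the scale: 4 members were higher and 1 lower with TPM as deposited, and 1 was higher and 6 were lower with 75th percentile scaling. Fos and Npas4 kept their calls and directions in all 26 alternative settings. Egr2 lost its call with quantile normalization (0.26, adjusted p = 0.27), with 75th percentile scaling (adjusted p = 0.0715), without shRNA-RUS replicate 1 of day 5 (0.0717) and without shRNA-RUS replicate 4 of day 7 (0.0673). On the common scale of the 16 libraries, all day 7 libraries lay below all day 5 libraries for Fos and Fosb, which held for 22.5% of all genes, and above them for Npas4, which held for 30.0%. In TPM as deposited the Fosb groups overlapped. Junb was at −0.64 (95% interval −1.25 to −0.03, adjusted p = 0.0663). Without the day 5 library of replicate 4, 4 members were lower in place of 1.

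**Figure D3:**
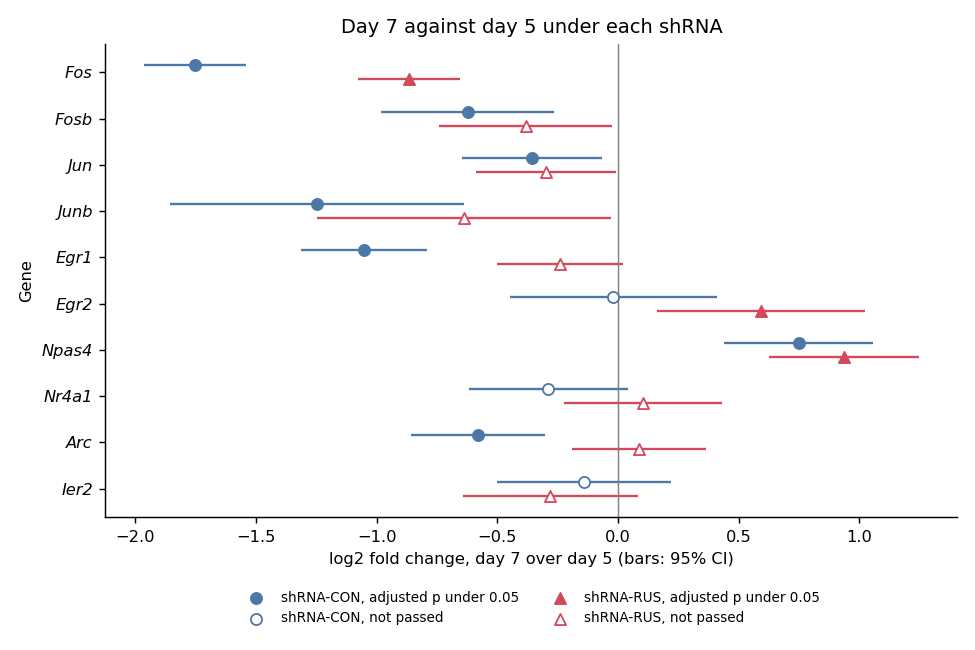
Log2 fold change of day 7 over day 5 (horizontal axis) for each member in shRNA-CON (circles) and shRNA-RUS (triangles), with 95% confidence intervals as bars and filled symbols at an adjusted p under 0.05. Fos lies at −1.75 in shRNA-CON and −0.87 in shRNA-RUS, and Npas4 lies right of 0 under both shRNAs.

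Whether the effect of the knockdown depended on the day was tested directly, in 1 fit over the 16 libraries. It was called for 3 members, all with a higher effect on day 7, and for 0 in the other direction, where 15.2% of all genes were called higher and 14.6% lower. At an unadjusted p under 0.05, 4 members were higher and 0 lower, a threshold to which these shares do not apply. Fos had a difference of 0.89 on the log2 scale (SE 0.14, adjusted p = 2.83e-04), Egr1 of 0.81 (SE 0.17, adjusted p = 0.00261) and Arc of 0.67 (SE 0.18, adjusted p = 0.0128). These calls were kept in all 26 alternative settings for each of the 3 genes. Without shRNA-RUS replicate 4 of day 5, Egr2 passed as well (0.77, adjusted p = 0.037). For Junb the difference was 0.61 (95% interval −0.25 to 1.47) and for Egr2 0.61 (0.00 to 1.22, adjusted p = 0.122). Over the 26 alternative settings the Junb difference ran from 0.28 to 0.81 and was not called in any. Jun (0.06, −0.35 to 0.47), Fosb (0.24, −0.27 to 0.75), Npas4 (0.19, −0.25 to 0.63), Nr4a1 (0.39, −0.07 to 0.86) and Ier2 (−0.14, −0.65 to 0.37) did not pass. Of all genes called, 51.1% were higher, and 73.5% with TPM as deposited and 38.1% with 75th percentile scaling. The 5 comparisons share libraries, so their values are not independent.

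Ordered by mean scaled TPM, the 4 groups formed distinct patterns. For Fos the order was shRNA-RUS on day 5, shRNA-CON on day 5, shRNA-RUS on day 7 and shRNA-CON on day 7, with overlap only between the day 5 groups. For Npas4 it ran from shRNA-CON on day 7 through shRNA-RUS on day 7 and shRNA-CON on day 5 to shRNA-RUS on day 5, and no neighbours overlapped. In Fosb, Junb, Egr1 and Arc, shRNA-CON on day 7 was the lowest group and apart from its neighbour. Egr2 and Nr4a1 were highest in shRNA-RUS on day 7, but neighbouring groups overlapped at every step, as they did for Jun and Ier2.

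Across the 16 libraries, likeness of pattern was measured as the root mean square difference of standardised log2 values, a description that carries the shared design and library factors with it. Among 15898 genes ordered by it, Junb was number 2 for Jun and Jun was number 2 for Junb, at a difference of 0.236 SD. Egr1 was number 2 for Arc (0.466 SD), and Fos was number 29 for Egr1 (0.357 SD). Npas4 was the farthest of the other 9 members from Fos, at number 14482. The nearest gene averaging 1 TPM or more was Csrp1 for Fos, Muc1 for Fosb, Adrb1 for Jun, Numbl for Junb, Ogdh for Egr1, Supt6 for Egr2, Abca7 for Arc, Dlc1 for Npas4, Ephb4 for Nr4a1 and Nrtn for Ier2.

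Relatives and partners of the members were read from lists, whose counts stand beside 23.4% higher and 25.8% lower over all genes on day 7, 14.8% and 17.9% on day 5, 26.9% and 21.6% from day 5 to day 7 in shRNA-CON, 35.0% and 25.8% between the same days in shRNA-RUS, and 15.2% and 14.6% for the difference between days. Of 30 other rapidly induced primary response genes, 10 were higher and 7 lower in the knockdown on day 7, with a list median of 0.24. The AP-1 genes Fosl1 (0.42 to 1.87 TPM, log2 fold change 1.98, adjusted p = 3.76e-04) and Fosl2 (7.19 to 17.2 TPM, 1.24, adjusted p = 4.71e-07), the Egr family gene Egr3 (0.453 to 1.92 TPM, 1.87, adjusted p = 2.04e-05) and Ier3 (6.63 to 17.8 TPM, 1.41, adjusted p = 1.17e-06) were the 4 named by size, all higher. On day 5, 6 were higher and 6 lower of 29 tested, among them Ier3 (0.82) and Atf3 (0.52), a stress-induced ATF factor, on the higher side and Klf10 (−0.80) and Dusp1 (−0.53), a phosphatase of MAP kinases, on the lower side. In shRNA-CON 12 of 29 fell and 5 rose from day 5 to day 7, with Ccn2 (2.16) and Nr4a3 (2.07), a relative of Nr4a1, among the higher and Ier3 (−1.30) among the lower.

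Of 18 factors and coactivators that act on immediate early promoters, 12 were higher and 1 lower in the knockdown on day 7, with a list median of 0.46, against 4 higher and 1 lower on day 5. Mef2d (0.94, adjusted p = 6.47e-07), a calcium-regulated MADS-box factor, the CREB coactivator Crtc1 (0.75, adjusted p = 1.74e-05), the ternary complex factor Elk4 (0.70, adjusted p = 1.35e-06) and the SRF coactivator Mrtfb (0.70, adjusted p = 6.13e-05) were named on day 7. Srf, at 34.6 ± 2.86 and 36.0 ± 1.82 TPM, did not pass (0.06), nor did Creb1 (0.12), and both were named for their role after their values were seen. In shRNA-CON 12 of the 18 rose and 2 fell from day 5 to day 7, with Camk4 (1.14), a calcium-activated kinase, and Creb1 (0.70) among the higher. In shRNA-RUS 15 rose and 0 fell, and the effect of the knockdown was called higher on day 7 than on day 5 for 11 and lower for 1.

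The list of ERK feedback genes holds targets of ERK signalling, the Dusp, Spry and Spred genes that dampen it and the Etv transcription factors that act downstream of it. It had 7 higher and 2 lower of 11 in the knockdown on day 7 (list median 0.36), and 1 higher and 1 lower on day 5. Spry4 (0.89, adjusted p = 2.28e-04), Spry2 (0.77, adjusted p = 1.21e-05), Etv5 (0.71, adjusted p = 4.72e-05) and Spred2 (0.71, adjusted p = 4.47e-06) were higher. In shRNA-CON 6 of 11 fell from day 5 to day 7 and 2 rose, with Spry4 (−1.06), Etv4 (−1.05) and Spry2 (−1.04) lower and Etv1 (1.08) higher. Spry4 and Spry2 stood at 4.75 and 45.1 TPM in shRNA-CON on day 5, at 2.46 and 24.3 TPM on day 7, and at 4.68 and 41.8 TPM in shRNA-RUS on day 7. Dusp6, a phosphatase of ERK, went the other way in the knockdown, with 32.1, 26.6 and 19.2 TPM in the same 3 groups, and was lower on day 7 (−0.47, adjusted p = 1.56e-04), with a difference between the days of −0.63 (adjusted p = 2.5e-04). Spry1, a relative of Spry2, was lower in the knockdown on day 5 (−0.40, adjusted p = 0.0234) and on day 7 (−0.38, adjusted p = 0.00527), with 4.13, 4.15 and 3.16 TPM in those groups.

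Of 14 late-response genes of active neurons, 3 were higher and 3 lower in the knockdown on day 7, with a list median of 0.02, where 23.4% of all genes were higher and 25.8% were lower, so these counts are near the background. On day 5, 3 were higher and 1 lower. Bdnf, a neurotrophin, was higher (1.24, adjusted p = 2.48e-06), whereas Nrn1, the neuritin gene, was lower (−1.72, adjusted p = 1.75e-07), as were Plk3 (−0.55) and Rgs2 (−0.54). Of 15 corepressors and dimer partners, 8 were higher and 2 lower on day 7 (list median 0.15), and 2 higher and 2 lower of 14 tested on day 5. Those named on day 7 include Jdp2 (0.85, adjusted p = 2.21e-06), a repressor that pairs with Jun proteins, and Rxrb (0.66, adjusted p = 7.77e-07), a partner of nuclear receptors. Nab2, a corepressor of Egr proteins, was higher (0.38, adjusted p = 0.015) and Nab1, its relative, was lower (−0.38, adjusted p = 4.77e-04) on day 7. These 2 were named for their role after their values were seen.

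**Figure D4:**
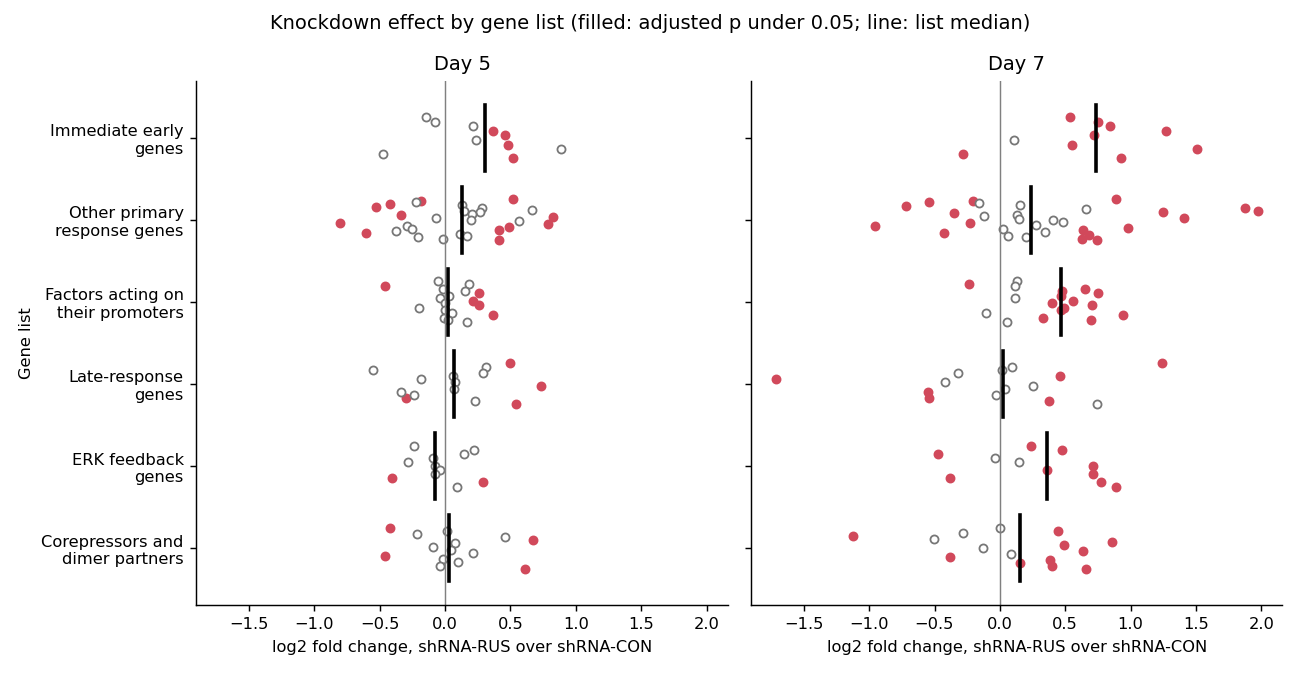
Log2 fold change of shRNA-RUS over shRNA-CON (horizontal axis) for every tested gene of 6 lists on day 5 and day 7, with filled points at an adjusted p under 0.05 and a line at each list median. The immediate early genes have the highest median on both days, 0.30 and 0.73, followed on day 7 by the factors that act on their promoters at 0.46. The members and lists were chosen with earlier results of these data known, so this order is a description and no test.

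Markers of cell types moved along with these comparisons. In bulk libraries, fewer cells of a type and less RNA per cell cannot be told apart. The cultures held NSC and astrocyte transcripts at high level, and neuron markers summed to 811 to 896 TPM in shRNA-CON and 812 to 941 TPM in shRNA-RUS on day 7, with 4 of 8 higher and 2 lower. All 6 microglia markers were lower on day 7 in the knockdown, with a sum of 193 to 207 TPM in shRNA-CON and 83.7 to 105 TPM in shRNA-RUS, and 2 of 6 on day 5 (73.8 to 79.6 against 59.3 to 73.2 TPM). All 6 oligodendrocyte lineage markers (362 to 416 against 239 to 260 TPM) and all 4 proliferation markers (478 to 496 against 224 to 246 TPM) were lower on day 7 too, and astrocyte markers were higher in 4 of 6 and lower in 1 (3263 to 3336 against 4060 to 4294 TPM). Of 6 fibroblast and pericyte markers, 2 were higher and 0 lower of the 5 tested on day 7 (15.8 to 17.5 against 32.9 to 37.4 TPM). That sum is mostly Pdgfrb (mean 11.4 against 28.7 TPM), and the other higher marker, Col1a1, stood at 0.77 against 1.87 TPM. Of the endothelial markers, Cldn5 and Cdh5 were at or near 0 in every group, Kdr was lower in the knockdown on both days, and Pecam1 did not pass on either day (0.142 against 0.185 TPM on day 5 and 0.255 against 0.352 TPM on day 7), so the endothelial sums are mostly Kdr. Of 6 NSC and radial glia markers, 2 were higher and 2 lower (6447 to 6943 against 7009 to 7731 TPM) on day 7. On day 5, all 4 proliferation markers were lower in the knockdown (435 to 461 against 229 to 256 TPM), as were 4 of 6 oligodendrocyte lineage markers (230 to 305 against 141 to 208 TPM). NSC and radial glia markers were higher in 3 and lower in 2 of 6 on that day (11777 to 13152 against 15604 to 17211 TPM), astrocyte markers were higher in 3 and lower in 0 of 6 (5105 to 5532 against 5956 to 6590 TPM), and neuron markers were higher in 3 and lower in 2 of 8 (494 to 614 against 475 to 524 TPM). The fibroblast and pericyte sum was 28.6 to 33.4 against 23.1 to 34.5 TPM, and the endothelial sum 5.04 to 6.02 against 2.39 to 3.43 TPM. From day 5 to day 7 in shRNA-CON, NSC and radial glia markers were higher in 1 and lower in 2 of 6 (11777 to 13152 against 6447 to 6943 TPM). Vim (mean 8918 to 5121 TPM) and Fabp7 (3510 to 1248 TPM), which make up most of that sum, fell, whereas Nes rose (56.0 to 111 TPM). Astrocyte markers were lower in 5 of 6 (5105 to 5532 against 3263 to 3336 TPM). Neuron markers were higher in 6 and lower in 1, Stmn2, of 8 (494 to 614 against 811 to 896 TPM). In the same controls 4 of 6 microglia markers were higher on day 7 (73.8 to 79.6 against 193 to 207 TPM), 4 oligodendrocyte lineage markers were higher and 1 lower of 6 (230 to 305 against 362 to 416 TPM), and 4 of 5 fibroblast and pericyte markers were lower (28.6 to 33.4 against 15.8 to 17.5 TPM). In shRNA-RUS from day 5 to day 7, neuron markers were higher in 7 and lower in 1 of 8 (475 to 524 against 812 to 941 TPM), NSC and radial glia markers higher in 1 and lower in 4 of 6 (15604 to 17211 against 7009 to 7731 TPM) and astrocyte markers lower in 5 of 6 (5956 to 6590 against 4060 to 4294 TPM). Oligodendrocyte lineage markers were higher in 4 of 6 there (141 to 208 against 239 to 260 TPM), microglia markers higher in 3 and lower in 1 of 6 (59.3 to 73.2 against 83.7 to 105 TPM), fibroblast and pericyte markers higher in 1 and lower in 3 of 5, and proliferation markers lower in 2 of 4. The part of these differences in the levels of the immediate early genes was not tested.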

How the data were processed

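Groups (shRNA and day, 4 RNA-seq libraries each) were taken from the labels. The authors sequenced polyA RNA and quantified it with RSEM after alignment by STAR (mm10 genome, GRCm38 transcript table). For either day the authors deposited 1 table, which holds the TPM of 8 libraries beside columns of a DESeq2 comparison. Fold changes, test statistics and p-values in those columns were left aside, and the deposited mean normalized count (a signal averaged over the 8 libraries) is printed as the authors' mean. The day of a table was read from its name, since the columns of both tables are named alike. TPM keep no depth per library, so no counting interval is given. TPM of a library summed to 999999.3 to 1000000.7.

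The fits used limma 3.58.1 in R 4.3.3. Other steps used scipy 1.17.1, numpy 2.4.6 and pandas 2.3.3 under Python 3.11.15, and plots matplotlib 3.10.9. Each TPM was divided by median-ratio library factors (genes with at least 1 TPM in all libraries of the fit), 0.1 was added before the log2, and genes averaging 0.1 TPM or more were tested with limma (eBayes with trend, two-sided, Benjamini-Hochberg over all genes tested, threshold 0.05). Knockdown and control were compared in the 8 libraries of each day. Days, and the difference between them, came from 1 fit over the 16 libraries, without 106 lines that lack a symbol or carry different symbols in the tables. The procedure was tested on simulated data. RUS was compared by an exact permutation test over 70 arrangements. Alternatives changed the pseudocount, filter, scaling, variance model, block, fold limit and libraries.

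The members and lists were chosen with earlier results of these data known. Of each other list, up to 4 called genes of the largest change, with at least 1 TPM and no overlap between groups, are named in a comparison. Srf, Creb1, Nab1, Nab2, Dusp6 and Spry1 on day 7, and Cldn5, Cdh5 and Pecam1, were named outside this rule. Same-numbered libraries did not deviate together (correlations of −0.23 to 0.11 over 16 pairs).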

Additional observations from a re-analysis of the deposited data

Results flagged for a closer look

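Among 40 groups of 4 libraries (10 genes in 4 groups), 2 held a library far from the other 3 by Dixon's 95% criterion, where chance gives about 1 in 20. Fos stood at 60.5 TPM in shRNA-CON replicate 3 on day 5, above the other 3 controls. Egr2 stood at 2.31 TPM in shRNA-RUS replicate 4 on day 7, above the other 3 knockdown libraries.

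The knockdown effect differed between the days for 3 members by the test of that difference in limma. The difference, day 7 minus day 5, was 0.89 on the log2 scale for Fos, 0.81 for Egr1 and 0.67 for Arc. For Fos the effect was 0.37 on day 5 and 1.27 on day 7, for Egr1 −0.08 and 0.75, and for Arc −0.15 and 0.54.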

How the results depend on the processing

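Over 1158 repeats of single-gene values (10 members, 5 comparisons, up to 19 or 26 settings), 1074 kept direction and side of the threshold, 59 lost the call, 25 gained it and none that was called reversed. The causes of the changes below were not tested. On day 5, 4 members were higher, and 1 with no filter, 1 with the replicate number as a block, 0 with TPM as deposited and 0 at a fold change of at least 1.5. Leaving out single libraries gave 1 to 4. Members lower on day 5 went from 0 to 1 with TPM as deposited and to 1 in the fit over 16 libraries. On day 7 the 8 higher members were 6 to 8 in every setting, and 7 to 8 without single libraries. The 1 lower member became 0 with quantile normalization, the replicate block, a fold change of at least 1.5, the fit over 16 libraries, and 0 to 1 without single libraries. In shRNA-CON, 5 to 7 were lower and 1 was higher without single libraries. In shRNA-RUS between days, the 2 higher members became 4 with TPM as deposited, 1 with 75th percentile scaling and 1 with quantile normalization, and 1 to 2 without single libraries. The 1 lower member became 2 with a pseudocount of 1, 6 with 75th percentile scaling, 2 with quantile normalization, 2 without the trend, and 1 to 4 without single libraries (4 without shRNA-RUS replicate 4 of day 5). The difference between days was called for 3 to 4 members without single libraries. The mean RUS level of the knockdown was 32.9% to 94.7% of control on day 5 and 25.2% to 57.7% on day 7 without single libraries, beside 71.0% and 43.2% with all.

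Same-numbered libraries share only a number, and 3 of 16 correlated best with their own. The replicate block changed calls over all genes from 3349 higher and 4034 lower to 2231 and 2735 on day 5, and from 5766 and 6342 to 5330 and 5895 on day 7. Depth limits Fosb, Egr2, Arc and Npas4 most among the members, at authors' mean normalized counts of 59.2 to 172.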
